A study of Mus musculus with 12 samples.

Results

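The podocyte actin cytoskeleton genes described here are 10 genes, Synpo, Actn4, Inf2, Myo1e, Myh9, Arhgdia, Ddn, Cd2ap, Rhpn1 and Mtss1, chosen by symbol from the 13475 genes listed in all count tables. All 10 were listed in every table and passed the filter on low counts. RNA was sequenced from mouse glomeruli of 4 groups of 3 different mice on a C57BL/6 background. The groups were podocyte-specific DACH1 knockout (KO) mice given STZ, control mice given STZ, KO mice at baseline and control mice at baseline. STZ (streptozotocin), a toxin of insulin-producing beta cells, was injected on 5 days at a daily 50 µg per g and RNA was isolated 10 days later, while the baseline mice were 10 weeks old. The sources used here do not give the age of the STZ mice, the Cre driver or the alleles that the controls carry. The titles of the STZ controls begin with hetN and those of the baseline controls with Ctrl, with no meaning given, so the 2 control groups may differ in genotype. What such a difference adds to the pooled fit, the interaction and the STZ comparison in controls was not tested. By its title the series looked for genes that DACH1, a nuclear regulator of transcription, controls in podocytes, with and without diabetes.

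Podocytes wrap the glomerular capillaries with interdigitating foot processes, and each foot process is held in shape by a bundle of actin filaments linked to the slit diaphragm and to the basement membrane. Crosslinkers, formins, myosins and their regulators set the length, tension and branching of these filaments. Mutations in human ACTN4, INF2, MYO1E, MYH9, ARHGDIA and CD2AP are known causes of kidney disease with proteinuria.

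Totals ran from 66134170 to 78631380 counts after STZ and from 22636456.5 to 24925846.5 at baseline, so the arms differ in depth and in the genes their tables list as well as in treatment, and STZ and arm cannot be told apart. The 10 genes together took 0.511% to 0.737% of the counts of a library. Dach1 (chromosome 14, 97786853 to 98169765) had 55.8, 65.9 and 67.0 CPM in KO libraries after STZ, against 145, 175 and 183 CPM in STZ controls, and 47.2, 56.7 and 59.3 CPM in KO libraries at baseline, against 162, 106 and 188 CPM in baseline controls. CPM are counts relative to library size, scaled by trimmed mean of M values (TMM) over the 12 libraries. Every KO library lay below every control of its arm (log2 fold change over both arms -1.45, SE 0.13, adjusted p = 9.1e-05 in edgeR's quasi-likelihood test). The podocyte genes Podxl and Nphs1 averaged 11790 and 2500 CPM over all libraries. The proximal tubule marker mean ran from 6.81 to 8.46 log2 CPM in KO and from 6.53 to 8.64 in control libraries after STZ, and from 6.15 to 9.34 in KO and from 6.79 to 7.84 in control libraries at baseline. By Xist and Ddx3y the STZ libraries were male except 1 female KO library, and each baseline group held 2 females and 1 male. Over both arms none of the 9 mesangial, 12 endothelial, 7 smooth muscle and renin, 20 proximal tubule, 9 later tubule and 10 immune markers measured was called, and 1 of 7 parietal markers was lower. The labels give different mice for each group, and the tests weigh a difference between groups against the spread between mice estimated in each fit.

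Among the 10 genes, 3 were lower in KO glomeruli over both arms together: Rhpn1, Mtss1 and Synpo. The other 7 did not pass, and none of the 10 rose. Over both arms 381 of the 13475 genes tested (2.83%) were called at an adjusted p under 0.05. The median log2 fold change of the 10 genes was -0.01, against 0.00 over all genes. Levels in every library are shown in the plot of counts by group.

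**Figure D1:**
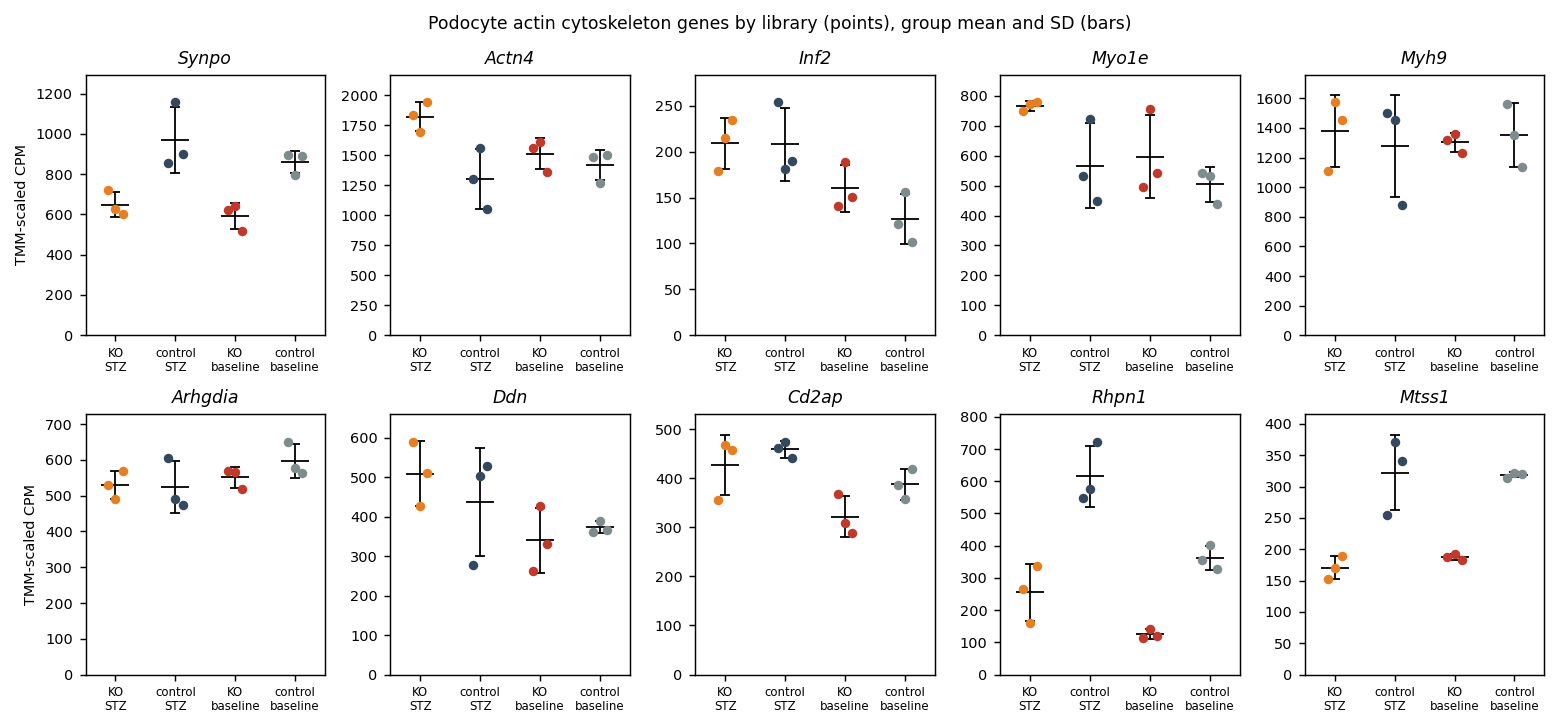
TMM-scaled CPM (y axis, linear, from 0) of the 10 genes in KO STZ, control STZ, KO baseline and control baseline libraries (x axis); points are single mice, the horizontal bar is the mean and the whiskers are 1 SD (n = 3). For Rhpn1, Mtss1 and Synpo all KO points lie below all control points of the same arm, and for Actn4 and Myo1e the KO points lie above the controls in the STZ arm.

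Rhpn1 encodes rhophilin-1, a scaffold that binds the small GTPase RhoA and is enriched in podocytes, and it lies on chromosome 15 from 75704280 to 75715485 (GRCm38, plus strand). It had 266, 161 and 337 CPM in KO libraries after STZ, against 547, 575 and 723 CPM in STZ controls. At baseline it had 113, 142 and 121 CPM in KO libraries, against 355, 401 and 327 CPM in controls. No KO library of either arm reached a control of its own arm. The log2 fold change was -1.27 after STZ (SE 0.27, adjusted p = 0.12), -1.53 at baseline (SE 0.13, adjusted p = 0.018) and -1.40 over both arms (SE 0.16, 95% interval -1.76 to -1.04, adjusted p = 0.00057), by edgeR's quasi-likelihood test. Over both arms the KO level was thus 0.379 of the control level, with an interval of 0.296 to 0.486. KO libraries after STZ were spread more widely than the others, with a coefficient of variation of 34.7% against 15.4% in STZ controls.

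Mtss1 encodes a membrane-bending I-BAR protein that binds actin monomers, and it lies on chromosome 15 from 58941234 to 59082005 (minus strand). It had 152, 170 and 189 CPM in KO libraries after STZ, against 255, 372 and 341 CPM in STZ controls. At baseline it had 187, 193 and 182 CPM in KO libraries, against 314, 322 and 320.3 CPM in controls. The baseline groups were among the tightest of the set, with coefficients of variation of 2.89% in KO and 1.22% in control libraries, and no groups overlapped in either arm. The log2 fold change was -0.91 after STZ (SE 0.17, adjusted p = 0.083), -0.77 at baseline (SE 0.08, adjusted p = 0.032) and -0.84 over both arms (SE 0.09, adjusted p = 0.00046).

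Synpo encodes synaptopodin, an actin-associated protein of foot processes that stabilises RhoA, and it lies on chromosome 18 from 60593973 to 60660142 (minus strand). It had 719.6, 626 and 599.9 CPM in KO libraries after STZ, against 855, 1156 and 898 CPM in STZ controls. At baseline it had 619.5, 640.0 and 518 CPM in KO libraries, against 894, 797 and 891 CPM in controls. All 6 KO libraries lay below all 6 controls, including those of the other arm. The log2 fold change was -0.58 after STZ (SE 0.16, adjusted p = 0.26) and -0.54 at baseline (SE 0.13, adjusted p = 0.35), so in edgeR Synpo passed with both arms in 1 fit (-0.56, SE 0.10, adjusted p = 0.008) and in neither arm alone. DESeq2 called it in each arm (adjusted p = 0.035 after STZ, where DESeq2 called 3.47% of all genes, and 0.0077 at baseline, where it called 1.64%). The pooled fit holds the same libraries as the fits within arms and is not a further sample of mice.

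Within arms, 2 of the 10 genes passed at baseline (Rhpn1 and Mtss1, both lower), where 31 of 13475 genes (0.23%) did, and 0 passed after STZ, where 175 of 16291 genes (1.07%) did. After STZ 4 of the 10 genes had an unadjusted p under 0.05, against 9.08% of all genes. DESeq2 called 3 of these 4, Synpo, Rhpn1 and Mtss1, and called the same 3 at baseline. Groups did not overlap for 5 of the 10 genes after STZ, against 14.9% of all genes, and for 3 of the 10 at baseline, against 11.8% of all genes. The baseline calls of Rhpn1 and Mtss1 were lost on leaving out any library other than KO replicate 1, with Rhpn1 then between -1.45 and -1.63 and Mtss1 between -0.74 and -0.79, and with sex in the model (adjusted p = 0.063 and 0.14). Within the females of the baseline arm Rhpn1 averaged 127 CPM in KO and 378 CPM in control libraries (2 each), and in the males it was 121 CPM in the KO and 327 CPM in the control library.

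**Figure D2:**
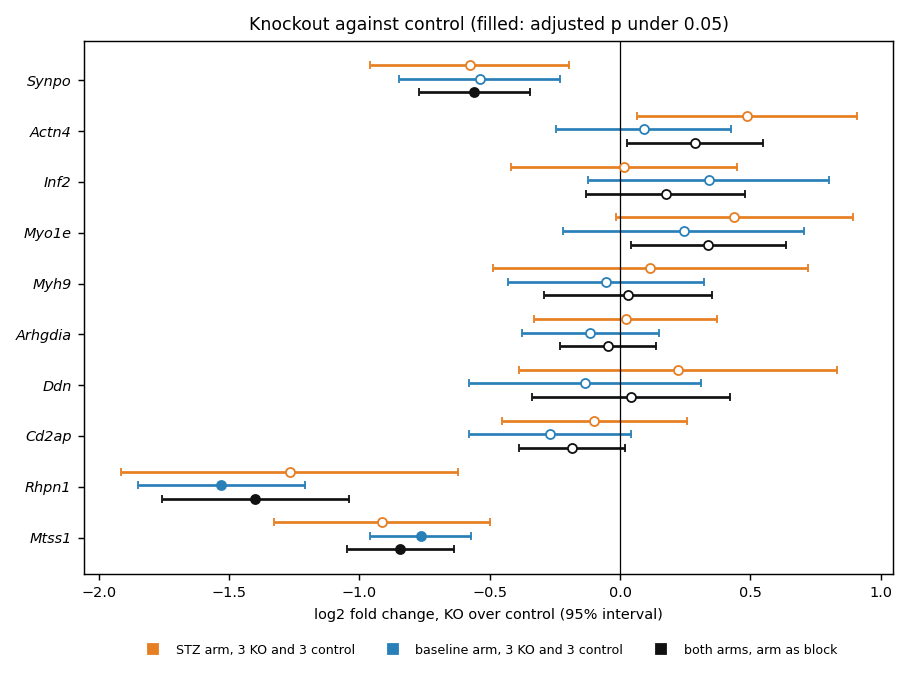
Log2 fold change of KO over control (x axis) of the 10 genes (y axis) in the STZ arm, in the baseline arm and over both arms, with 95% intervals from edgeR's quasi-likelihood fit; filled points passed an adjusted p under 0.05. The Rhpn1, Mtss1 and Synpo intervals lie below 0 in all 3 fits. Those of Actn4 after STZ and over both arms, and that of Myo1e over both arms, lie above 0 with open points.

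The 3 lower genes were set against the podocyte content of the libraries. The mean of 18 podocyte markers was 9.24, 9.28 and 9.25 log2 CPM in KO libraries after STZ, against 9.33, 9.49 and 9.36 in STZ controls, and 8.96, 8.78 and 8.65 in KO libraries at baseline, against 9.39, 8.92 and 9.19 in baseline controls. Of the 18 markers, 5 fell, Vegfa and Cdkn1c among them, and 1 rose (Npnt) over both arms. In the same order of baseline libraries, the proximal tubule marker mean was 6.15, 8.56 and 9.34 in KO and 6.79, 7.84 and 7.19 in controls. In bulk glomeruli fewer podocytes, less RNA per podocyte and a larger part of tubule RNA cannot be told apart. The part of tubule RNA in the podocyte marker mean was not tested. Relative to the marker mean, the difference of KO minus control libraries on the log2 scale was -1.19 after STZ and -1.16 at baseline for Rhpn1, with no overlap in either arm. For Mtss1 it was -0.77 after STZ and -0.39 at baseline, again with no overlap. For Synpo it was -0.44 after STZ with no overlap and -0.17 at baseline, where the groups overlapped. For the 7 genes that were not called it was positive in both arms, from 0.020 for Cd2ap after STZ to 0.72 for Inf2 at baseline, and the marker mean that it is taken from includes the 5 markers that fell. Among these 7 the groups did not overlap for Actn4 in either arm (0.63 after STZ and 0.46 at baseline) and for Myo1e after STZ (0.60), and overlapped otherwise. The marker mean was itself lower in KO libraries, with medians of 9.25 against 9.36 after STZ and 8.78 against 9.19 at baseline. An unchanged gene is thus positive on this measure. Without the marker mean taken off, Actn4 at baseline was 0.09 with overlapping groups. With the marker mean as a covariate in the pooled fit, Synpo was -0.43 (adjusted p = 0.14) and 2 of the 10 genes were still called, and at baseline neither Rhpn1 (-1.69, adjusted p = 0.12) nor Mtss1 (-0.77, adjusted p = 0.29) passed. This relative measure was chosen after the values were seen.

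Of the genes that crosslink filaments or move along them, Actn4 and Myo1e had all KO libraries above all controls after STZ, without passing the test. Actn4 encodes alpha-actinin-4, the crosslinker of foot process bundles, and lies on chromosome 7 from 28893248 to 28962340 (minus strand). It had 1832, 1693 and 1938 CPM in KO libraries after STZ, against 1302, 1555 and 1052 CPM in STZ controls, and 1560, 1606 and 1362 CPM in KO libraries at baseline, against 1480.0, 1271 and 1501 CPM in baseline controls. The groups did not overlap after STZ (0.49, SE 0.18, adjusted p = 0.46) and overlapped at baseline (0.09, SE 0.14, adjusted p = 0.90). Over both arms the log2 fold change was 0.29 (SE 0.12, interval 0.03 to 0.55, adjusted p = 0.33 in edgeR). Actn4 shares 316 exon bases with Capn12 on the opposite strand, and the sources used here do not state how the authors handled strand.

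Myo1e encodes a class I myosin of podocyte junctions and lies on chromosome 9 from 70207350 to 70399766 (plus strand). It had 749, 773 and 778 CPM in KO libraries after STZ, against 531, 722 and 448 CPM in STZ controls, and 494, 755 and 541 CPM in KO libraries at baseline, against 542, 531 and 438 CPM in baseline controls. Its log2 fold change was 0.44 after STZ (SE 0.19, adjusted p = 0.58) and 0.24 at baseline (SE 0.19, adjusted p = 0.81). Over both arms Myo1e was at 0.34 (SE 0.14, interval 0.04 to 0.64, adjusted p = 0.30 in edgeR). In the same STZ comparison the mean of 7 measured smooth muscle and renin markers was 5.98 to 6.94 log2 CPM in KO libraries. In controls it was 5.72 to 5.93. Tagln, a smooth muscle actin-binding gene, was higher (log2 fold change 3.77, adjusted p = 0.034 in edgeR). The other 7 of the 8 markers tested in this arm were not called, and the list median was 0.06. Mustn1 (1.35), Acta2 (0.37) and Cnn1 (0.12) stood above 0, and Ren1 (-0.38), Akr1b7 (-0.21), Myh11 (-0.02) and Rgs5 (-0.004) below. The part of these markers in the Actn4 and Myo1e values was not tested.

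The promoters of these 2 genes are shown because they are the members whose KO libraries all lay above all controls after STZ. The sequences are the 250 bases before the RefSeq start (GRCm38.p6), 5′ to 3′. Actn4 is chr7:28962333-28962582 on the minus strand, with SP boxes (GGGCGG, either strand) in capitals, and Myo1e is chr9:70207100-70207349 on the plus strand, with a CArG box, the element bound by serum response factor, in capitals.
Actn4: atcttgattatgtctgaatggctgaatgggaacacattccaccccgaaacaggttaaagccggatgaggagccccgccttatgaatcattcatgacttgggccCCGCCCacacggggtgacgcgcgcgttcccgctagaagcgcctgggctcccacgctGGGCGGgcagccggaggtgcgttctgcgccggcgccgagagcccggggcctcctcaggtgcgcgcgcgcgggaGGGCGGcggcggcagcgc
Myo1e: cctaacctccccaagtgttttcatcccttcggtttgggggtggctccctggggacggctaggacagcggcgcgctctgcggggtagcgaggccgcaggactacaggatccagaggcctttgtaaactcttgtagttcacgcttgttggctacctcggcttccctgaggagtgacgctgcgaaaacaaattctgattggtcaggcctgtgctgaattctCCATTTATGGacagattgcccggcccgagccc
Of the 10 members, 6 had an entry in the set of RefSeq promoters used here (Actn4, Myo1e, Arhgdia, Inf2, Myh9 and Cd2ap). Rhpn1, Mtss1, Synpo and Ddn had no entry there, so the motif counts do not cover the members called in the pooled fit. SP boxes were present in 4 of the 6, against 53.8% of 12475 promoters, and a CArG box in 1, against 1.18%. The TEAD core GGAATG was present in 2 of the 6, against 11% of promoters. The forkhead core TGTTTAC (2.32% of promoters) and the LMX1B core TAATTA (2.84%) were in none. These motifs were chosen after the count files were read, and a match describes letters in this window only.

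For the remaining 5 genes KO and control libraries overlapped in both arms. Inf2, a formin that nucleates and severs actin (chromosome 12, 112588784 to 112615557), averaged 209 ± 27.8 CPM in KO and 208 ± 39.7 CPM in control libraries after STZ, and 160.0 ± 25.4 CPM in KO and 126 ± 27.4 CPM in control libraries at baseline (SD, n = 3 each). Myh9, the heavy chain of non-muscle myosin IIA (chromosome 15, 77760587 to 77842175), averaged 1378 ± 242 CPM in KO and 1276 ± 345 CPM in control libraries after STZ, and 1302 ± 66.5 CPM in KO and 1351 ± 215 CPM in control libraries at baseline. Arhgdia, a GDP dissociation inhibitor of small GTPases (chromosome 11, 120578104 to 120581624), had a pooled log2 fold change of -0.05 with an interval of -0.23 to 0.14, the narrowest of the set.

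Ddn encodes dendrin, a slit diaphragm protein that can enter the nucleus (chromosome 15, 98803777 to 98809490). It averaged 508 ± 81.8 CPM in KO and 437 ± 138 CPM in control libraries after STZ, and 339 ± 82.7 CPM in KO and 372 ± 15.3 CPM in control libraries at baseline. Its 177 exon bases shared with the antisense gene B130046B21Rik leave its counts uncertain by the same strand question. Cd2ap, the adaptor between nephrin and actin (chromosome 17, 42792951 to 42876665), averaged 427 ± 61.9 CPM in KO and 459 ± 17.2 CPM in control libraries after STZ, and 322 ± 41.3 CPM in KO and 388 ± 31.3 CPM in control libraries at baseline. Its pooled log2 fold change was -0.19 (interval -0.39 to 0.02, adjusted p = 0.45).

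Per kilobase of exon, Actn4 and Arhgdia stood highest in KO glomeruli after STZ, at 297 ± 20.03 and 235 ± 17.7 CPM per kb, and Mtss1 lowest at 15.0 ± 1.63. In baseline controls Arhgdia was at 264 ± 21.0, Actn4 at 231 ± 20.8 and Cd2ap, the lowest, at 24.4 ± 1.97 CPM per kb. Neighbours in the order from Myh9 to Rhpn1, between 104.5 ± 16.6 and 84.0 ± 8.69 CPM per kb in those controls, did not differ beyond their spread. Rhpn1 was 7th of the 10 in KO glomeruli after STZ and 3rd in STZ controls, and 8th in KO glomeruli at baseline and 7th in baseline controls. Lengths of the longest transcript in place of the exon union move these ranks, to 8th, 4th, 10th and 5th for Rhpn1.

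None of the 10 genes differed between the STZ and baseline arms in either genotype at an adjusted p under 0.05. Of 13473 genes tested, 0.178% passed in KO mice and 0.23% in control mice. Groups did not overlap for 3 of the 10 genes in KO mice (Actn4, Ddn and Rhpn1), against 21.6% of all genes, and for 3 in controls (Inf2, Cd2ap and Rhpn1), against 19.8%, with the STZ libraries higher each time. Both counts are near the share of all genes. Rhpn1 came nearest, with all 3 STZ libraries above all 3 baseline libraries in KO mice (log2 fold change 1.00, SE 0.26, adjusted p = 0.17) and in controls (0.73, SE 0.16, adjusted p = 0.19). DESeq2 called Rhpn1 in both (adjusted p = 0.013 in KO mice and 0.0013 in controls), where it called 5.98% of all genes in KO mice and 3.05% in controls. In KO mice 2 of the 10 genes had an unadjusted p under 0.05 (Ddn and Rhpn1), against 14.7% of all genes, and in controls 2 did (Inf2 and Rhpn1), against 12.6%, again near the share of all genes. Ddn was 0.56 higher in STZ than in baseline KO mice (SE 0.20, adjusted p = 0.28). Inf2 was 0.69 higher in STZ than in baseline controls (SE 0.21, adjusted p = 0.30) and 0.37 higher in KO mice (SE 0.16, adjusted p = 0.36). The median podocyte marker was 0.38 higher in the STZ arm in KO mice and 0.23 higher in controls, beside medians of 0.29 and 0.14 for the 10 genes. Other cell type lists moved as well, in KO mice and controls in turn. Medians were -0.69 and -0.75 for mesangial, -0.50 and -0.38 for endothelial, 1.51 and 1.92 for immune and -1.09 and 0.15 for proximal tubule markers. None of these markers was called.

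**Figure D3:**
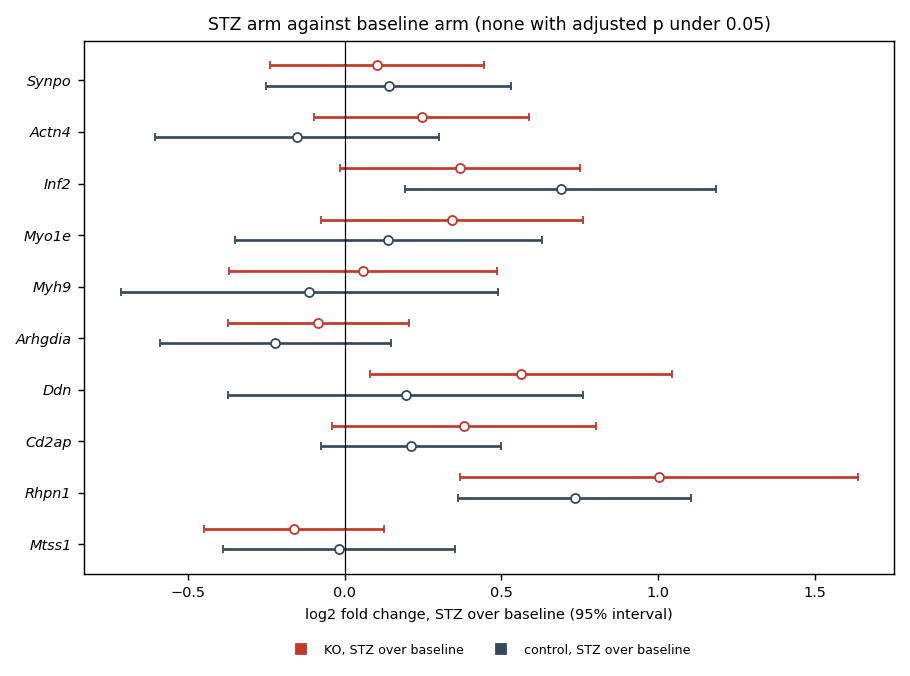
Log2 fold change of STZ over baseline (x axis) of the 10 genes (y axis) in KO and in control mice, with 95% intervals from edgeR's quasi-likelihood fit; no point passed an adjusted p under 0.05. The Rhpn1 intervals lie above 0 in both genotypes, and treatment and arm cannot be told apart here.

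The knockout difference itself was compared between the arms by an interaction term over all 12 libraries. Of 13475 genes, 1 passed (0.00742%), and none of the 10 did, with 0 of them at an unadjusted p under 0.05, against 3.67% of all genes. DESeq2 called 0 of the 10 as well, and 0.23% of all genes. Actn4 had the largest interaction, 0.39 (SE 0.22, interval -0.09 to 0.87, adjusted p = 0.98), and that of Rhpn1 was 0.26 (interval -0.46 to 0.98). Both intervals include 0.

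Homologues were measured beside the members. Of 29 homologues tested over both arms, 0 were called, with a median of -0.04 against 0.00 over all genes. Rhpn2, the homologue of Rhpn1, had 37.3, 31.4 and 35.7 CPM in KO libraries after STZ, against 17.9, 25.4 and 27.4 CPM in STZ controls, and 20.8, 24.1 and 22.1 CPM in KO libraries at baseline, against 17.8, 21.4 and 25.5 CPM in baseline controls. Its log2 fold change was 0.57 after STZ (SE 0.18, adjusted p = 0.33) and 0.31 over both arms (SE 0.14, adjusted p = 0.38), beside -1.40 for Rhpn1. Mtss1l stood at 0.06 over both arms (SE 0.10, adjusted p = 0.85) beside -0.84 for Mtss1, and Synpo2 at 0.14 (SE 0.16, adjusted p = 0.79) beside -0.56 for Synpo. Actn1 had 0.82 after STZ (SE 0.27, adjusted p = 0.39) and Daam2, a formin related to Inf2, -0.57 over both arms (SE 0.16, adjusted p = 0.11). Differences between a member and its homologue were not tested.

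**Figure D4:**
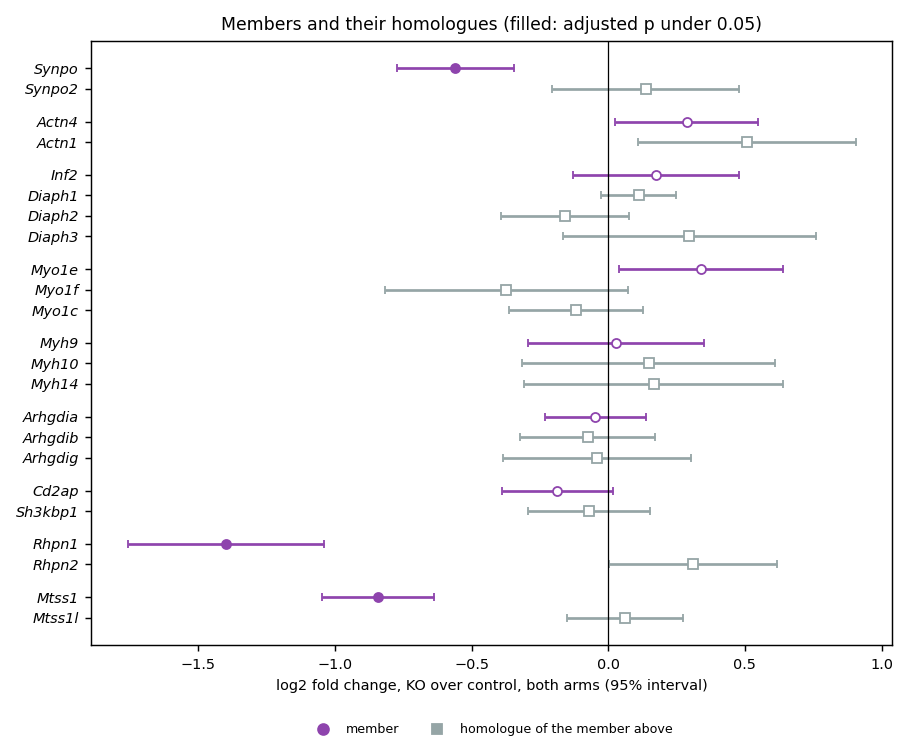
Log2 fold change of KO over control over both arms (x axis) for members (circles) and the homologues named with each (squares), with 95% intervals; filled points passed an adjusted p under 0.05. Rhpn1, Mtss1 and Synpo are the filled points, and the points of their homologues Rhpn2, Mtss1l and Synpo2 lie above 0.

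Among other actin genes each list held from 0 to 2 calls over both arms, where 2.83% of all genes were called. Over both arms, of 24 contractility genes Cdc42bpg, an effector kinase of Cdc42, fell (-0.54, SE 0.09, adjusted p = 0.0087). None of 56 actin and filament turnover genes passed, with Enah, a filament elongation factor, nearest (0.45, SE 0.11, adjusted p = 0.055). Of 38 adhesion linkers Dag1, the dystroglycan gene, rose (0.63, SE 0.14, adjusted p = 0.03), and of 29 slit diaphragm adaptors Mpp5, a polarity scaffold, rose (0.58, SE 0.08, adjusted p = 0.0023) and Nck2, which couples nephrin to actin, fell (-0.38, SE 0.08, adjusted p = 0.019). Of 25 genes listed as SRF and YAP targets, which include regulators such as Srf, Yap1 and Tead1, Nuak2 fell (-0.62, SE 0.13, adjusted p = 0.029). The medians of these lists lay between -0.05 and 0.01. At baseline none of these genes passed, and after STZ Tagln was the 1 gene that did.

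**Figure D5:**
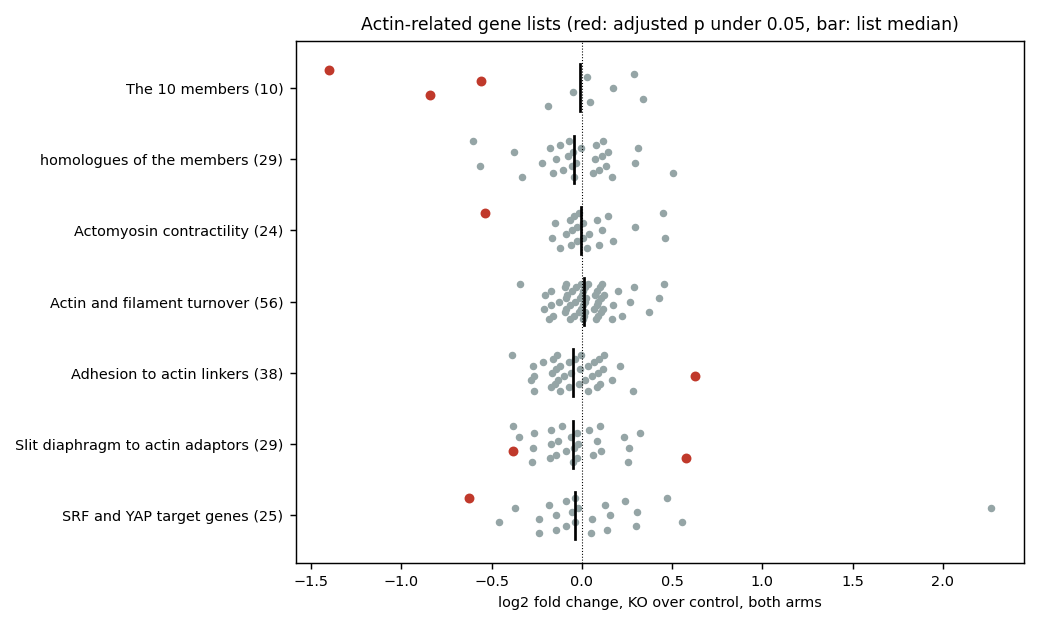
Log2 fold change of KO over control over both arms (x axis) for the 10 members and 6 actin-related gene lists (y axis, with the number of genes measured); red points passed an adjusted p under 0.05 and the black bar is the list median. List medians lie close to 0, and the called genes are single points away from them.

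The genes whose profile over the 12 libraries was most like that of a called member were found by root-mean-square distance of log2 CPM, centred on the control mean of each arm, among 13450 genes. For Rhpn1 they were Metrnl (0.26), Dach1 (0.35) and Abca5 (0.36), against 1.04 for the size of the Rhpn1 profile itself. For Mtss1 they were St3gal1 (0.10), Arid3b (0.15) and Disp1 (0.17), against 0.61, and for Synpo Wsb2 (0.13), Tmc5 (0.13) and Enpep (0.13), against 0.42. Centring on controls favours genes with a like KO difference in these same libraries. Over both arms Metrnl, Dach1 and Abca5 were at -1.56, -1.45 and -1.22, beside -1.40 for Rhpn1. Shared regulation was not tested. Among the 10 members, values ending in 0.5 occurred for Rhpn1 (9 of 12 libraries), Mtss1 (7) and Synpo (5) and for no other. Of 13475 genes, 3169 (23.5%) held such a value in any library. Over all genes 2.81% of those with such values and 2.83% of those without were called in the pooled fit.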

How the data were processed

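Glomerular RNA from 12 mice was sequenced, 3 mice in each of 4 groups. The authors deposited estimated counts per gene symbol, 1 table per library, not scaled to depth. Between 10.5% and 11.5% of a library's values end in 0.5, and values were rounded to whole numbers. BWA and mm10 are named, with no role, per the submitters' processing notes. The sources used here do not state the counting tool, annotation or strand handling. Blank values (18) were taken as 0. Replicates differed by far more than sampling noise (chi-square per degree of freedom 42 to 352).

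Counts were TMM-scaled, filtered with filterByExpr and fitted in edgeR 4.0.16 (limma 3.58.1, under R 4.3.3) by its quasi-likelihood test, with p-values adjusted by Benjamini-Hochberg over all genes tested and calls at an adjusted p under 0.05. Knockout was compared with control within each arm (6 libraries) and over both arms with arm as a block (12 libraries), and STZ with baseline within each genotype. DESeq2 1.42.0 was an alternative. Standard errors come from the F statistic. The steps were tested on simulated data. The members, gene lists and cell type markers were chosen with earlier results of these data known. Named were the 10 members, Dach1, list genes called in a knockout comparison or otherwise up to 4 of smallest p per list, of which some are left out of the text, homologues, and the 3 genes of nearest profile for each called member. The homologue pairs in the plot, the neighbouring genes, the split by values ending in 0.5 and the values relative to podocyte markers were chosen after the values were seen. The results of 1 gene list and of some marker genes are not reported here. Positions are from GENCODE M21 (GRCm38) and RefSeq (GRCm38.p6).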

Additional observations from a re-analysis of the deposited data

How the results depend on the processing

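Over both arms Rhpn1 and Mtss1 were called under each alternative run, and no called member changed sign under any. No paired analysis was possible because the replicate numbers were given in accession order and pair no mice. The number of members called at baseline (2) was 0 with the podocyte marker covariate and 0 with the sex covariate. It was 3 with DESeq2, which called 1.64% of all genes, and ran from 0 to 2 on leaving out 1 library. After STZ (0) it was 3 with DESeq2, which called 3.47% of all genes. With all 12 libraries in 1 fit it was 2, and the share of all genes called in that fit is not given here. For STZ against baseline it was 1 with DESeq2 in KO mice (5.98% of all genes called) and 1 in controls (3.05%), where the main count was 0. The cause was not tested. All genes called ran from 4 to 220 at baseline (31), from 3 to 565 after STZ (175), from 241 to 697 over both arms (381), from 0 to 805 for STZ in KO mice (24), from 4 to 410 for STZ in controls (31) and from 0 to 31 for the interaction (1). Signs of members that were not called turned in several fits. With the podocyte marker covariate, log2 fold changes were 0.080 for Myh9 and 0.022 for Arhgdia at baseline, -0.24 for Inf2, -0.16 for Arhgdia and 0.018 for Cd2ap after STZ, -0.059 for Inf2 and 0.024 for Arhgdia over both arms, -0.31 for Synpo, -0.10 for Actn4, -0.27 for Myh9 and -0.31 for Cd2ap for STZ in KO mice, and -0.011 for Synpo for STZ in controls. With the proximal tubule covariate they were -0.0064 for Inf2 after STZ, -0.011 for Ddn over both arms and -0.013 for Myh9 for STZ in KO mice. With the sex covariate they were -0.015 for Inf2 after STZ, -0.014 for Myh9 over both arms and 0.15 for Myh9 for STZ in controls. Mtss1 for STZ in controls was 0.0012 with library totals and 0.016 with all 12 libraries. On leaving out 1 library, ranges that crossed 0 were, at baseline, -0.16 to 0.065 for Myh9 and -0.33 to 0.0082 for Ddn; after STZ, -0.080 to 0.18 for Inf2, -0.10 to 0.26 for Myh9, -0.059 to 0.14 for Arhgdia, -0.020 to 0.37 for Ddn and -0.18 to 0.022 for Cd2ap; over both arms, -0.063 to 0.091 for Myh9 and -0.084 to 0.13 for Ddn. For STZ in KO mice Myh9 ran from -0.056 to 0.20, and for STZ in controls Synpo ran from -0.0038 to 0.22, Myo1e from -0.071 to 0.29, Myh9 from -0.25 to 0.11 and Mtss1 from -0.13 to 0.12. For the interaction Synpo ran from -0.15 to 0.10 and Myh9 from -0.056 to 0.30.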

Other observations

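The measured genes on either side of each member along the chromosome (20 genes, RefSeq, GRCm38.p6) were read in the knockout comparison over both arms. Of these 20, 2 were called, against 2.83% of all genes. Top1mt, which encodes mitochondrial topoisomerase I, lies 25445 bases before Rhpn1 on chromosome 15. It had 31.9, 27.3 and 54 CPM in KO libraries after STZ, against 211, 215 and 244 CPM in STZ controls, and 24.9, 27.5 and 29.0 CPM in KO libraries at baseline, against 157, 110.3 and 130 CPM in baseline controls. Its log2 fold change was -2.43 over both arms (SE 0.17, adjusted p = 1.1e-05), a larger decrease than that of its neighbour Rhpn1 (-1.40). Zc3h3, the measured gene on the other side of Rhpn1, stood at -0.02 (SE 0.10, adjusted p = 0.96). Ptchd4, 241144 bases before Cd2ap on chromosome 17, was at -1.88 (SE 0.30, adjusted p = 0.0046), while Cd2ap itself was not called. On chromosome 15, which carries 4 of the 10 members, 3.26% of 522 genes were called.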
